A study of Mus musculus with 12 samples.

Results

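The 9 genes described here encode the vascular endothelial growth factor (VEGF) receptors Kdr, Flt1 and Flt4, the neuropilin co-receptors Nrp1 and Nrp2, and the ligands Vegfa, Vegfb, Vegfc and Pgf. They were chosen by name, with earlier results of these data known, and all 9 were found among the 21638 genes of the count table. All 9 reached the minimum mean count of 10 and so were among the 12577 genes tested. Their messenger RNA was measured by sequencing of cortical endothelial cells sorted from adult mouse brain for CD31, with CD41 and CD45 absent, in 12 libraries forming 4 groups of 3.

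The groups were wild type (WT), Hdac2 ECKO (Hdac2lox/lox:Cdh5CreERT2, endothelial deletion of a histone deacetylase gene), Ezh2 ECKO (Ezh2lox/lox:Cdh5CreERT2, endothelial deletion of a Polycomb methyltransferase gene) and beta-catenin GOF (Ctnnb1lox/lox:Cdh5CreERT2, constitutive activation of beta-catenin in endothelium). Cdh5CreERT2 is a Cre recombinase expressed from an endothelial promoter and switched on by tamoxifen. The mutant mice had received 5 doses of tamoxifen at 75 mg/kg, and brains were taken 2 months later. The labels give no exact age, no number of animals per library and no tamoxifen or Cre status for WT. They do not state that replicates came from separate animals, so p-values measure the spread between these libraries only.

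VEGF ligands bind receptor tyrosine kinases on endothelial cells. Kdr carries most of the signal for endothelial growth and permeability, Flt1 binds Vegfa, Vegfb and Pgf tightly with weak kinase activity and also exists as a soluble decoy, and Flt4 is the receptor for Vegfc, best known in lymphatic vessels and in sprouting endothelium. Neuropilins are co-receptors shared with the class 3 semaphorins. In adult brain Vegfa is made largely by cells around the vessels, whereas its receptors sit on the endothelium.

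The libraries held 24781070 to 36109975 counts, with 13922 to 17091 genes above 0. Per 1000000 counts of the unscaled library total, 3 counts corresponded to between 0.0831 and 0.121. CPM below is the count per 1000000 counts of the scaled library total. The targeted transcripts did not separate the mutants from WT. Hdac2 was at 96.5 ± 15.2 CPM in Hdac2 ECKO against 129 ± 30.1 in WT, and Ctnnb1 at 583 ± 109 in beta-catenin GOF against 654 ± 138 (SD, n = 3 each). The libraries labelled Ezh2 ECKO held 8.92 ± 3.36 CPM of Ezh2, against 6.75 ± 3.52 in WT (SD, n = 3 each). These values overlapped and the mean was not lower in the mutant, so the transcript does not bear out the label. The group is therefore named labelled Ezh2 ECKO from here on. Gene-level counts do not resolve the deleted exons, so recombination was not measurable.

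The libraries also differed in how long and short genes were represented. Length tilt, the median log2 deviation of the longest 20% of genes minus that of the shortest 20%, was -0.70, -0.43 and -0.41 in WT and 0.92, 0.24 and 0.72 in Hdac2 ECKO, for replicates 1, 2 and 3. In beta-catenin GOF it was -0.41, -0.28 and -0.28, and in labelled Ezh2 ECKO 0.55, -0.73 and 0.62. Replicate 2 of labelled Ezh2 ECKO thus stood apart from the other two on the side of WT. The summed exons of the 9 genes ranged from 1605 bases for Vegfb to 13504 bases for Flt1, so differences are also given after a correction for gene length and GC content.

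All 9 endothelial markers examined (Pecam1, Cdh5, Tek, Tie1, Cldn5, Emcn, Erg, Egfl7 and Esam) were detected in every group. Their summed level ranged from 4498 to 5656 CPM in WT, from 3070 to 3960 in Hdac2 ECKO, from 3807 to 4522 in labelled Ezh2 ECKO and from 3678 to 5851 in beta-catenin GOF. The sum was therefore lower in every Hdac2 ECKO library than in every WT library, but the markers split. Mean levels were lower in Hdac2 ECKO than in WT for Cldn5 (697 against 1491 CPM), Emcn (1105 against 1599) and Egfl7 (320.4 against 832), and higher for Cdh5 (247 against 150.3), Tek (510 against 364) and Erg (127 against 60.9). The 4 erythrocyte markers, which are mostly globin genes, summed to 29697 to 49529 CPM in WT, 331 to 18236 in Hdac2 ECKO, 2067 to 5370 in labelled Ezh2 ECKO and 418 to 29478 in beta-catenin GOF. The 5 choroid plexus markers, mostly Ttr in each mutant group mean, summed to at most 2.09 CPM in WT and to 2.27 to 111 in Hdac2 ECKO, 23.7 to 182 in labelled Ezh2 ECKO and 0.449 to 33.6 in beta-catenin GOF. The 8 markers of microglia and leukocytes reached at most 13.5 CPM, the 6 of fibroblasts 5.72 and the 6 of oligodendrocytes 65.7. The part of these cells in the results below was not tested. In bulk RNA, fewer cells of a type and less RNA per cell cannot be told apart.

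Compared per kilobase of gene length, Flt1 was the most abundant of the 9 transcripts in every group. In WT it stood at 95.8 ± 13.9 CPM per kilobase, and 93.9% of tested genes had a lower level. Kdr followed at 25.1 ± 2.71 CPM per kilobase, with 83.7% of tested genes below it. Vegfc, at 20.7 ± 7.17, overlapped Kdr in range and was the most abundant ligand (SD, n = 3 for each level). This placed 1 ligand among the receptors in abundance, well above the other 3 ligands.

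Nrp1 came next in WT at 6.03 ± 1.56 CPM per kilobase and overlapped Vegfb at 4.42 ± 1.16. Flt4 at 2.27 ± 0.128 and Nrp2 at 1.16 ± 0.294 did not overlap their neighbours in the order. Vegfa at 0.466 ± 0.290 and Pgf at 0.320 ± 0.256 overlapped each other at the bottom, with 16.7% and 12.9% of tested genes below them (SD, n = 3 for each level). Thus the main Kdr ligand and the Flt1 ligand Pgf were the least abundant of the 9 transcripts in these sorted cells.

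The upper part of this order was the same in the mutants. Flt1, Kdr, Vegfc and Nrp1 held the first 4 places in all groups, at 152, 40.2, 21.1 and 9.50 CPM per kilobase in Hdac2 ECKO. The same genes stood at 122, 37.6, 20.1 and 8.38 in labelled Ezh2 ECKO and at 141, 27.6, 24.8 and 7.03 in beta-catenin GOF. Kdr and Vegfc overlapped in range in all groups except Hdac2 ECKO. Below them, Flt4, Nrp2, Vegfb, Pgf and Vegfa formed a run of overlapping neighbours in Hdac2 ECKO, where Vegfb took the seventh place instead of the fifth.

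**Figure D1:**
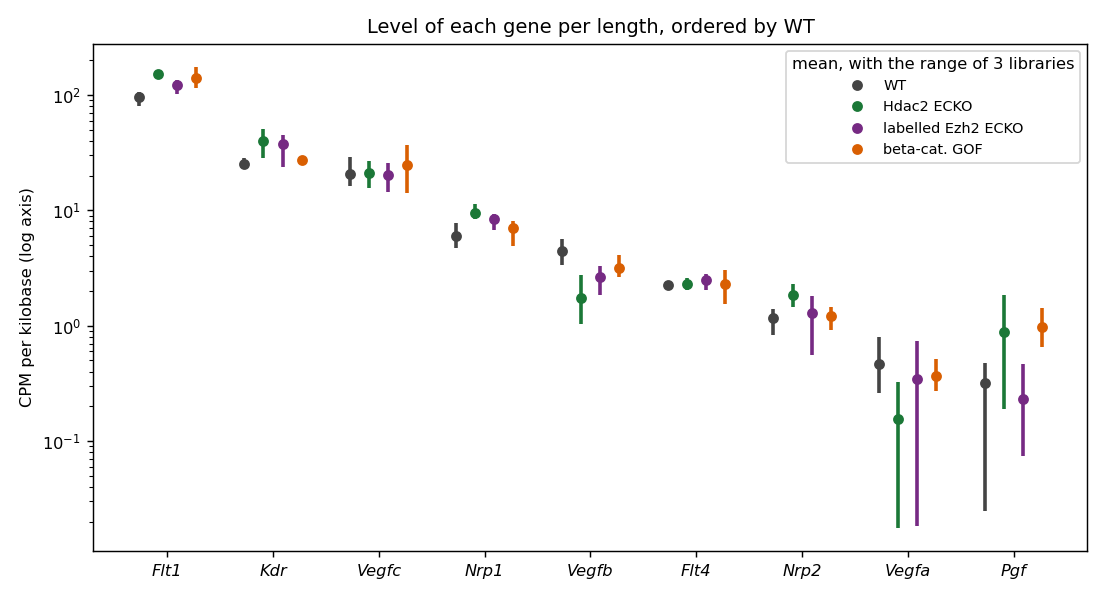
Level of each of the 9 genes in CPM per kilobase of gene length on a log axis, genes ordered by their WT mean; points are means of 3 libraries and bars the range. Flt1 leads in every group, and the bars of Vegfa and Pgf span the widest range, down to libraries with 2 counts.

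The spread among libraries of a group set how far each gene could be read. The within-group SD of log2 CPM was 0.23 for Flt1, smaller than that of all but 5.77% of tested genes, and 0.35 for Kdr. It was 0.29 for Flt4, 0.32 for Nrp1, 0.48 for Vegfb, 0.51 for Vegfc and 0.55 for Nrp2, against a median of 0.46 over all tested genes. Pgf at 1.40 and Vegfa at 1.50 were more variable than 92.9% and 94.3% of tested genes. Kdr, Flt1, Flt4 and Nrp1 were thus measured with less scatter than the typical gene, and Pgf and Vegfa with far more.

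The sequence just upstream of Kdr, Flt1 and Vegfb is shown because Kdr and Flt1 stood higher and Vegfb lower in every Hdac2 ECKO library than in every WT library. Each line gives the 250 bases before the RefSeq start (GRCm38.p6), written along the gene's own strand. Capitals mark GGAA, the core of the motif bound by ETS factors, a family that drives many endothelial genes, or its reverse complement TTCC.
Kdr: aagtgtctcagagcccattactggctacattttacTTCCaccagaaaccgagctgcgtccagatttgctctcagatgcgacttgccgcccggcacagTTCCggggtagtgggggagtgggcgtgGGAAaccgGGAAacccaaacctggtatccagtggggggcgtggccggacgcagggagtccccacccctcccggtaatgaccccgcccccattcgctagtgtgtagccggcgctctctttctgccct
Flt1: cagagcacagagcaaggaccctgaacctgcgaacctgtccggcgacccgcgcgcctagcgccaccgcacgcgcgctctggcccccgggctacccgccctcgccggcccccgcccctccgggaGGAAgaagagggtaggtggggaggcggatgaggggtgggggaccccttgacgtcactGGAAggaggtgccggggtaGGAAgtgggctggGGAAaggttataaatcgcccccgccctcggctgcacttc
Vegfb: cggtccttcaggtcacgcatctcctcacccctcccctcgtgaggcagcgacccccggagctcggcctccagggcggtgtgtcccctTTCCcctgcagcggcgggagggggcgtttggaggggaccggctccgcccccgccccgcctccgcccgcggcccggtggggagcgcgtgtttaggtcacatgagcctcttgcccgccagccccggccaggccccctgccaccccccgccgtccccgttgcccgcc
The windows lie on the minus strand at chr5:75978456-75978705 for Kdr, chr5:147726012-147726261 for Flt1 and chr19:6987652-6987901 for Vegfb. Searched on both strands, the Kdr and Flt1 windows each held 4 GGAA cores and the Vegfb window 1. Nrp1 and Nrp2 also stood higher in every Hdac2 ECKO library than in every WT library, and their windows, not shown, held 4 and 1. The number of cores thus did not follow the direction of the difference. GGAA is common, being found in 93.4% of the 32851 promoter windows of this length, with a median of 3, and 33.4% of windows held at least 4. CTTTG, the core of the motif bound by TCF and LEF partners of beta-catenin, was in 48.6% of windows and in none of the 3 shown. The Nrp1 window held 0 and the Nrp2 window 1. The GC content of the windows was 61.6% for Kdr, 70.4% for Flt1 and 76.4% for Vegfb.

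Kdr (ENSMUSG00000062960.10, chromosome 5, 75932827 to 75978458, minus strand, GRCm38, as for all positions below) was higher in all 3 Hdac2 ECKO libraries than in WT. In WT the 3 replicates held 209, 217 and 255 CPM. Hdac2 ECKO held 377, 258 and 453 CPM, so replicate 2 lay just above the highest WT value. The labelled Ezh2 ECKO group held 400.0, 213 and 405 CPM, with replicate 2 inside the WT range and the others far above it. In beta-catenin GOF the values were 230, 263 and 254 CPM, which overlapped WT.

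Hdac2 ECKO differed from WT in Kdr by 0.68 on the log2 scale (SE 0.28, 95% interval 0.08 to 1.27). This did not pass the threshold in edgeR's quasi-likelihood test (Benjamini-Hochberg adjusted p = 0.11). The difference was 0.58 (SE 0.28, edgeR adjusted p = 0.21) for labelled Ezh2 ECKO and 0.13 (SE 0.28, edgeR adjusted p = 0.97) for beta-catenin GOF. Kdr stood at 377 CPM or more in the 4 libraries with a length tilt of 0.55 or more, and at 263 CPM or less in the other 8. These 4 were replicates 1 and 3 of Hdac2 ECKO and of the labelled Ezh2 ECKO group. With the length and GC correction the differences were 0.18 (edgeR adjusted p = 0.63), 0.25 (edgeR adjusted p = 0.51) and -0.01 (edgeR adjusted p = 0.996).

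Leaving out replicate 2 of labelled Ezh2 ECKO brought Kdr past the threshold in the contrasts of Hdac2 ECKO and of labelled Ezh2 ECKO with WT. Its log2 difference from WT was then 0.67 in Hdac2 ECKO (edgeR adjusted p = 0.0438) and 0.83 in the remaining labelled Ezh2 ECKO pair (edgeR adjusted p = 0.0321). In the same fit 21.9% and 18.5% of all tested genes passed in these contrasts, up from 9.2% and 1.03%. Over the fits that left out any other single library, the adjusted p of Kdr reached 0.37 in Hdac2 ECKO, without its replicate 3, and 0.50 in labelled Ezh2 ECKO, without its replicate 1.

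Flt1 (ENSMUSG00000029648.13, chromosome 5, 147561604 to 147726011, minus strand) was higher in every library of Hdac2 ECKO and of beta-catenin GOF than in any WT library. WT replicates held 1082, 1440.4 and 1359.6 CPM. Hdac2 ECKO held 1859, 2100.5 and 2194.5 CPM, without overlap. In beta-catenin GOF the values were 1556, 1787 and 2357 CPM, and in labelled Ezh2 ECKO they were 1772, 1374 and 1804 CPM. Replicate 2 of the latter group again lay within the WT range, as it did for Kdr. Gene-level counts do not separate the membrane receptor from the soluble Flt1 isoform.

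None of these Flt1 differences passed the threshold. The log2 difference from WT was 0.66 in Hdac2 ECKO (SE 0.25, 95% interval 0.14 to 1.19, edgeR adjusted p = 0.084). It was 0.55 in beta-catenin GOF (SE 0.25, 95% interval 0.03 to 1.08, edgeR adjusted p = 0.80) and 0.35 in labelled Ezh2 ECKO (SE 0.25, edgeR adjusted p = 0.39). The corrected value was 0.01 in Hdac2 ECKO (edgeR adjusted p = 0.98) and -0.06 in labelled Ezh2 ECKO, while beta-catenin GOF kept 0.34 (edgeR adjusted p = 0.79). Hence the Flt1 difference was near 0 after the correction in Hdac2 ECKO and labelled Ezh2 ECKO and kept more of its size in beta-catenin GOF. Without replicate 2 of labelled Ezh2 ECKO, the Hdac2 ECKO difference of 0.66 in Flt1 passed (edgeR adjusted p = 0.0491). With all libraries kept, DESeq2 gave this difference an adjusted p of 0.0381.

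Flt4 (ENSMUSG00000020357.3, chromosome 11, 49609263 to 49652739, plus strand) stood at nearly the same level in all groups. WT held 18.0, 18.1 and 19.9 CPM, and Hdac2 ECKO held 16.8, 19.2 and 21.2 CPM. The labelled Ezh2 ECKO group held 23.1, 16.7 and 22.0 CPM, and beta-catenin GOF 19.7, 24.8 and 12.6 CPM. Every mutant group overlapped WT, and the log2 differences were 0.03, 0.14 and 0.03 for Hdac2 ECKO, labelled Ezh2 ECKO and beta-catenin GOF (SE 0.28 each). With the correction they turned to -0.28, -0.0029 and -0.17. The lymphatic markers Prox1, Lyve1, Pdpn and Ccl21a summed to at most 0.214 CPM in WT, with 3 of the 4 at 0 there, and to at most 1.89 CPM in any library.

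**Figure D2:**
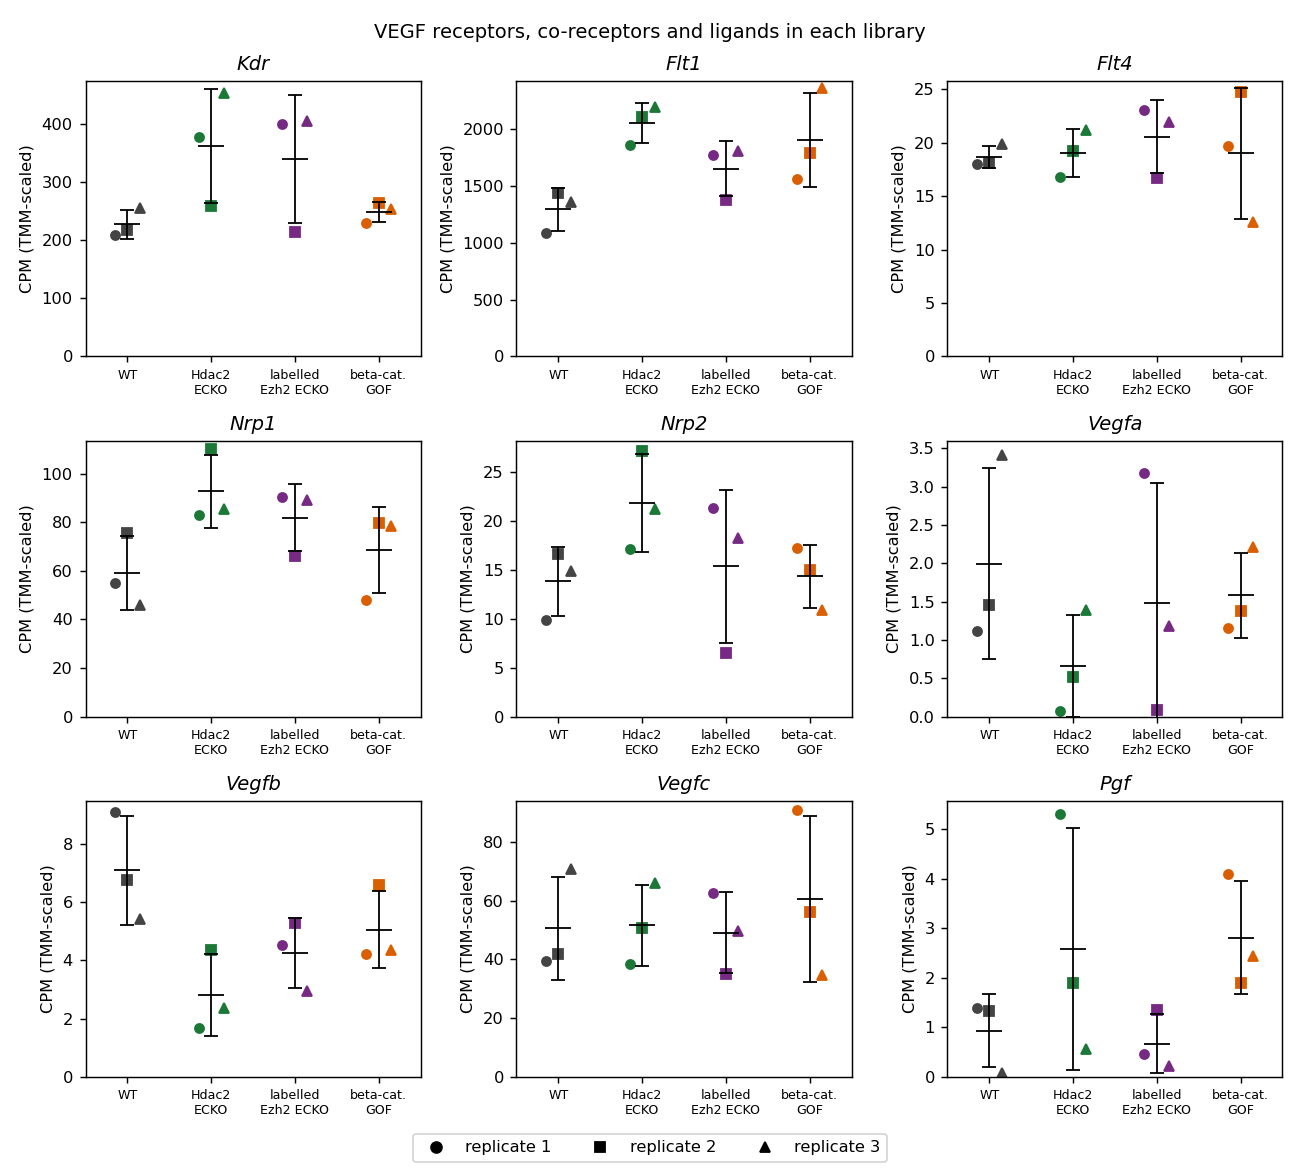
CPM of each of the 9 genes in every library, 1 panel per gene with its own axis from 0; symbols mark replicates, the horizontal bar is the mean and the whiskers 1 SD (n = 3, whiskers cut at 0). Flt1 in Hdac2 ECKO and beta-catenin GOF, and Kdr, Nrp1 and Nrp2 in Hdac2 ECKO, lie above all WT points, and Vegfb in Hdac2 ECKO and labelled Ezh2 ECKO lies below them.

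Nrp1 (ENSMUSG00000025810.9, chromosome 8, 128358604 to 128503363, plus strand), the co-receptor that enhances Vegfa binding to Kdr, was higher in all Hdac2 ECKO libraries than in WT. WT held 55.1, 75.8 and 46.1 CPM, and Hdac2 ECKO 83.1, 110.2 and 85.5 CPM. The labelled Ezh2 ECKO group held 90.6, 66.1 and 89.4 CPM, and beta-catenin GOF 48.2, 79.6 and 78.5 CPM, and both overlapped WT. The log2 difference was 0.65 in Hdac2 ECKO (SE 0.27, 95% interval 0.08 to 1.23, edgeR adjusted p = 0.11), 0.47 in labelled Ezh2 ECKO (edgeR adjusted p = 0.29) and 0.22 in beta-catenin GOF. After the length and GC correction it was 0.11 in Hdac2 ECKO and -0.04 in labelled Ezh2 ECKO. The gene shares 80 exon bases with Mir1903, which is 0.818% of its exons.

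Nrp2 (ENSMUSG00000025969.15, chromosome 1, 62703285 to 62818695, plus strand), a co-receptor for Vegfc and semaphorins, showed the same pattern at a lower level. WT held 9.89, 16.6 and 14.9 CPM, and Hdac2 ECKO 17.1, 27.1 and 21.2 CPM, just without overlap. The labelled Ezh2 ECKO group held 21.3, 6.53 and 18.2 CPM, so replicate 2 was the lowest of all 12 libraries and the other two exceeded WT. In beta-catenin GOF the values were 17.2, 14.9 and 10.8 CPM. The log2 difference in Hdac2 ECKO was 0.66 (SE 0.39, 95% interval -0.16 to 1.48, edgeR adjusted p = 0.24) and 0.09 after the correction. In labelled Ezh2 ECKO the difference was 0.15 and turned to -0.27 with the correction, and that of beta-catenin GOF was 0.05 and turned to -0.15.

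Vegfb (ENSMUSG00000024962.13, chromosome 19, 6982473 to 6987651, minus strand), a ligand of Flt1 and the shortest of the 9 genes at 1605 bases, was lower in every Hdac2 ECKO and every labelled Ezh2 ECKO library than in WT. WT held 9.09, 6.78 and 5.41 CPM. Hdac2 ECKO held 1.67, 4.37 and 2.36 CPM, and labelled Ezh2 ECKO 4.54, 5.27 and 2.95 CPM. The beta-catenin GOF values of 4.23, 6.60 and 4.36 CPM overlapped WT. In Hdac2 ECKO the log2 difference was -1.34 (SE 0.45, 95% interval -2.30 to -0.38), the Vegfb value having the smallest adjusted p of the 9 genes (edgeR adjusted p = 0.065).

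The Vegfb difference was -0.74 in labelled Ezh2 ECKO (SE 0.45, edgeR adjusted p = 0.32) and -0.49 in beta-catenin GOF (edgeR adjusted p = 0.93). With the length and GC correction it was -0.69 in Hdac2 ECKO (edgeR adjusted p = 0.25) and -0.20 in labelled Ezh2 ECKO. The Hdac2 ECKO contrast passed the threshold for Vegfb without replicate 2 of Hdac2 ECKO (-1.87, edgeR adjusted p = 0.0252) and without replicate 2 of labelled Ezh2 ECKO (-1.34, edgeR adjusted p = 0.0455). Vegfb also passed in DESeq2, at an adjusted p of 0.0240.

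Vegfc (ENSMUSG00000031520.6, chromosome 8, 54077606 to 54187096, plus strand), the main ligand of Flt4, was at similar levels in all groups. WT held 39.4, 41.7 and 70.9 CPM, and Hdac2 ECKO 38.3, 50.6 and 66.1 CPM. The labelled Ezh2 ECKO group held 62.8, 34.9 and 49.8 CPM, and beta-catenin GOF 91.0, 56.3 and 34.7 CPM, the widest range of any group. All groups overlapped, and the log2 differences from WT were 0.03, -0.04 and 0.26 in the order Hdac2 ECKO, labelled Ezh2 ECKO and beta-catenin GOF. The corrected values were 0.44 in Hdac2 ECKO and 0.19 in labelled Ezh2 ECKO.

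Vegfa (ENSMUSG00000023951.17, chromosome 17, 46016993 to 46032369, minus strand), the principal ligand of Kdr, was sparse. WT libraries held 32, 46 and 96 counts, or 1.11, 1.46 and 3.42 CPM. Hdac2 ECKO held 2, 16 and 40 counts, labelled Ezh2 ECKO 98, 2 and 33, and beta-catenin GOF 34, 52 and 76. The 2 libraries with 2 counts lay under the floor of 3 counts, and labelled Ezh2 ECKO spanned the whole range of counts in the 12 libraries. The log2 difference from WT was -1.58 in Hdac2 ECKO (SE 1.09, 95% interval -3.91 to 0.74, edgeR adjusted p = 0.32), -0.43 in labelled Ezh2 ECKO (edgeR adjusted p = 0.84) and -0.34 in beta-catenin GOF.

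All 3 intervals of Vegfa included 0, and the corrected value in Hdac2 ECKO was -1.61. The 8 astrocyte markers, from cells known to make Vegfa, summed to 24.0 to 36.3 CPM in WT and 50.8 to 76.2 CPM in Hdac2 ECKO, where Vegfa was at its lowest mean. In labelled Ezh2 ECKO they summed to 44.2 to 79.9 CPM, and in beta-catenin GOF to 37.6 to 54.3 CPM, with 1 marker at 0 in the latter. Most of this sum was Gja1, at a mean of 25.9 CPM in WT and 49.9 in Hdac2 ECKO, while Gfap was at 0.852 and 0.174 CPM and Aldoc at 0.399 and 0.0326. The 6 neuronal markers summed to 160 to 300.5 CPM in WT, 61.0 to 109 in Hdac2 ECKO, 178 to 423 in labelled Ezh2 ECKO and 116 to 247 in beta-catenin GOF. Nearly all of that was Stmn2, at a mean of 213 CPM in WT and 90.7 in Hdac2 ECKO. Snap25 was at 0.116 and 0.356 CPM, and Syt1, Rbfox3 and Camk2a also had higher means in Hdac2 ECKO. Tubb3 had a lower one (0.318 and 0.184 CPM). The astrocyte and neuronal sums thus rest mostly on 1 gene each. The part of these cells in the Vegfa values was not tested.

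Pgf (ENSMUSG00000004791.7, chromosome 12, 85166635 to 85177790, minus strand), placental growth factor, which binds Flt1 but not Kdr, was equally sparse. WT held 40, 42 and 2 counts, or 1.39, 1.33 and 0.07 CPM. In beta-catenin GOF it held 120, 72 and 84 counts, or 4.09, 1.90 and 2.44 CPM, all above WT. Hdac2 ECKO held 140, 58 and 16 counts and labelled Ezh2 ECKO 14, 34 and 6, and both overlapped WT.

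The Pgf log2 difference from WT was 1.59 in beta-catenin GOF (SE 1.01, 95% interval -0.56 to 3.74, edgeR adjusted p = 0.89). It was 1.47 in Hdac2 ECKO (SE 1.01, 95% interval -0.68 to 3.61, edgeR adjusted p = 0.32) and -0.48 in labelled Ezh2 ECKO. The corrected values were 1.71 in beta-catenin GOF and 2.09 in Hdac2 ECKO. Pericyte markers were higher in the groups with the higher mean of Pgf. The 9 pericyte markers summed to 36.1 to 57.6 CPM in WT and 39.6 to 46.7 in labelled Ezh2 ECKO, against 81.0 to 163 in Hdac2 ECKO and 82.0 to 164 in beta-catenin GOF. The 6 smooth muscle markers summed to 65.3 to 122 CPM in WT, with 1 at 0, 34.8 to 54.8 in labelled Ezh2 ECKO, 111 to 261 in Hdac2 ECKO and 83.6 to 447 in beta-catenin GOF. The median smooth muscle sum was 85.6 CPM in beta-catenin GOF and 93.0 in WT, so the high end in beta-catenin GOF came from a single library. The part of pericytes and smooth muscle in the Pgf values was not tested.

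Counted together, 0 of the 9 genes passed the adjusted threshold between Hdac2 ECKO and WT, a contrast in which 9.2% of all tested genes passed. DESeq2 and limma on quantile-normalized values each called 2, in fits where 24.6% (of genes that DESeq2 gave an adjusted p) and 16.2% of all tested genes passed. At an unadjusted p under 0.05, 4 of the 9 (Kdr, Flt1, Nrp1 and Vegfb) were selected in edgeR, against 33.1% of all tested genes. The values of 4 genes lay wholly above WT (Kdr, Flt1, Nrp1 and Nrp2), against 19.5% of all tested genes, and those of Vegfb wholly below, against 18.2%. The median log2 difference of the 9 was 0.65 beside 0.10 for all tested genes, and with the length and GC correction it was 0.09 beside 0.04. The 9 genes and the tested genes as a whole thus differed in their median before the correction and lay close together after it.

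For labelled Ezh2 ECKO, 0 of the 9 genes passed, where 1.03% of tested genes did, and 0 were under an unadjusted p of 0.05, where 24.7% were. DESeq2 also called 0, beside 10.4% of the genes that it gave an adjusted p. The fit with sample quality weights called 1, Kdr, beside 29.8% of all tested genes. Vegfb alone did not overlap WT, on the lower side, where 10.9% of tested genes did the same, and 0 lay wholly above, where 11.1% did. The 9 genes had a median log2 difference of 0.14 beside 0.05 for all tested genes, which turned to -0.063 beside 0 with the length and GC correction.

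For beta-catenin GOF, 0 of the 9 passed, and the same was true of 0% of all tested genes. DESeq2 and limma also called 0 of the 9, beside 0.303% and 0.00795% of all tested genes. Flt1 was the 1 gene under an unadjusted p of 0.05, where 6.07% of tested genes were. Flt1 and Pgf lay wholly above WT, where 6.83% of tested genes did, and 0 lay wholly below, where 5.87% did. The median log2 difference was 0.13 beside 0.01 for all tested genes, and with the correction it turned to -0.01 beside 0.01.

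**Figure D3:**
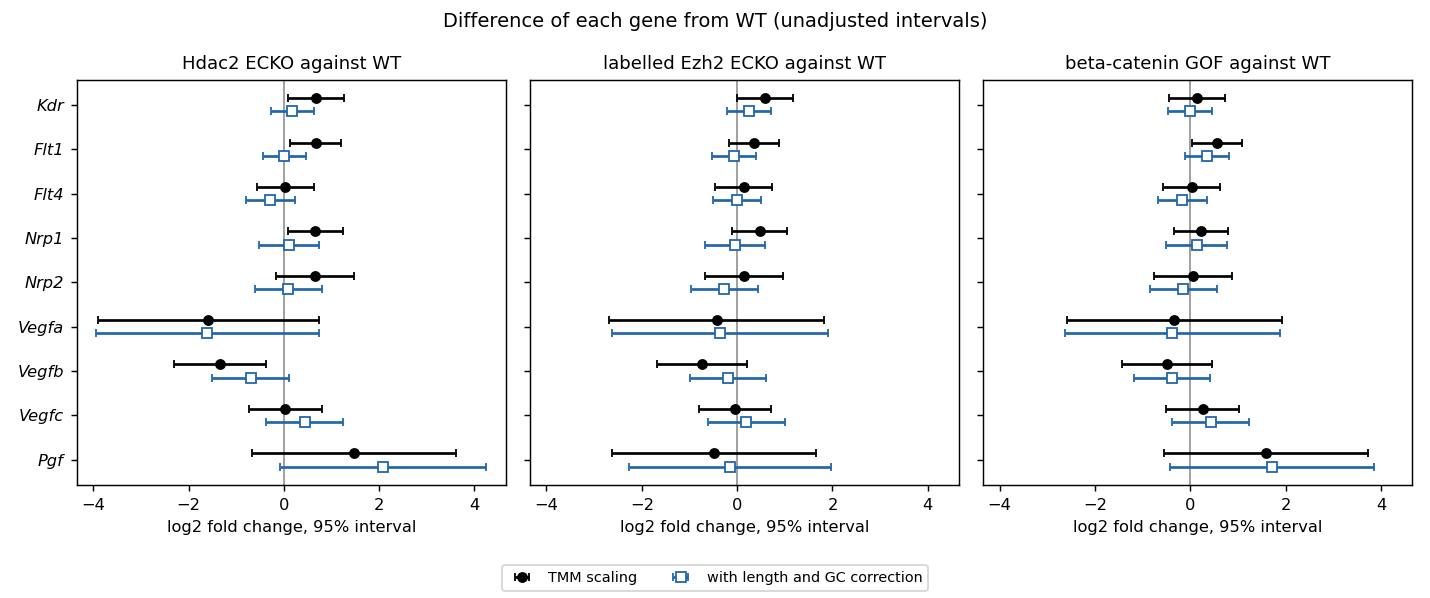
Log2 difference of each gene from WT with its unadjusted 95% interval in the 3 mutant groups, with TMM scaling (filled circles) and with the correction for gene length and GC content (open squares). In Hdac2 ECKO the receptor and co-receptor values near 0.65 move to between 0.01 and 0.18 with the correction, and the intervals of Vegfa and Pgf are the widest.

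The 3 contrasts share the WT libraries and so are not independent of each other. With the 9 mutant libraries averaged against WT, 0 of the 9 genes passed, where 2.31% of tested genes did, and Flt1 and Vegfb were under an unadjusted p of 0.05, where 25.7% of tested genes were. The averaged log2 difference was 0.52 for Flt1 (edgeR adjusted p = 0.14), -0.85 for Vegfb (edgeR adjusted p = 0.15), 0.46 for Kdr (edgeR adjusted p = 0.22) and 0.45 for Nrp1 (edgeR adjusted p = 0.22). DESeq2 called 0 of the 9 in this contrast, beside 13.9% of the genes that it gave an adjusted p. The fit with sample quality weights called 3, Kdr, Flt1 and Vegfb, beside 33.8% of all tested genes.

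Between the mutants, 0 of the 9 genes passed or were under an unadjusted p of 0.05 in any of the 3 contrasts, and DESeq2 called 0. The shares of all tested genes that passed were 0.0239% for labelled Ezh2 ECKO against Hdac2 ECKO, 0.0716% for beta-catenin GOF against Hdac2 ECKO and 0.0636% for beta-catenin GOF against labelled Ezh2 ECKO. At the unadjusted threshold these shares were 8.19%, 21.1% and 13.2%. In DESeq2 the shares past the adjusted threshold were 0.783%, 9.60% and 1.15% in the same order. Kdr was lower in beta-catenin GOF than in Hdac2 ECKO by a log2 value of -0.54 (SE 0.28, edgeR adjusted p = 0.27), with overlapping values.

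In each of these contrasts 1 gene did not overlap. On the side opposite to that gene 0 of the 9 lay, where 5.42%, 16.1% and 8.67% of tested genes did in the same order. Flt1 was lower in every labelled Ezh2 ECKO library than in every Hdac2 ECKO library (log2 difference -0.31, SE 0.25, edgeR adjusted p = 0.73), as were 7.78% of tested genes. Nrp1 was lower in every beta-catenin GOF library than in every Hdac2 ECKO library (-0.43, SE 0.27, edgeR adjusted p = 0.36), as were 15.9% of tested genes, and with the length and GC correction this value turned to 0.03. Pgf was higher in every beta-catenin GOF library than in every labelled Ezh2 ECKO library (2.07, SE 1.03, edgeR adjusted p = 0.40), as were 7.97% of tested genes.

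Flt1 and Kdr were also compared as their ratio per gene length within each library, which does not depend on library scaling. This ratio takes the membrane and soluble forms of Flt1 together, so it does not measure the decoy alone. It joins genes of 13504 and 9030 bases, and no length and GC correction was applied to it. The ratio was 3.46, 4.44 and 3.57 in WT and 3.30, 5.44 and 3.24 in Hdac2 ECKO. The labelled Ezh2 ECKO group had ratios of 2.96, 4.31 and 2.98, and beta-catenin GOF of 4.53, 4.54 and 6.21. All beta-catenin GOF libraries thus exceeded all WT libraries, 5.09 ± 0.970 against 3.82 ± 0.539 (SD, n = 3 each), a log2 difference of 0.41. In the two-sided exact permutation test p was 0.1, the smallest that 3 against 3 can give, and 0.3 after Benjamini-Hochberg adjustment over the 3 comparisons.

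Hdac2 ECKO at 3.99 ± 1.25 and labelled Ezh2 ECKO at 3.42 ± 0.773 overlapped WT in this ratio (SD, n = 3 each, exact permutation p = 1 and 0.5). In both groups replicate 2, the library with the lowest length tilt of its group, had the highest ratio. WT replicate 2 was likewise the highest in its group, at a length tilt between the others.

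**Figure D4:**
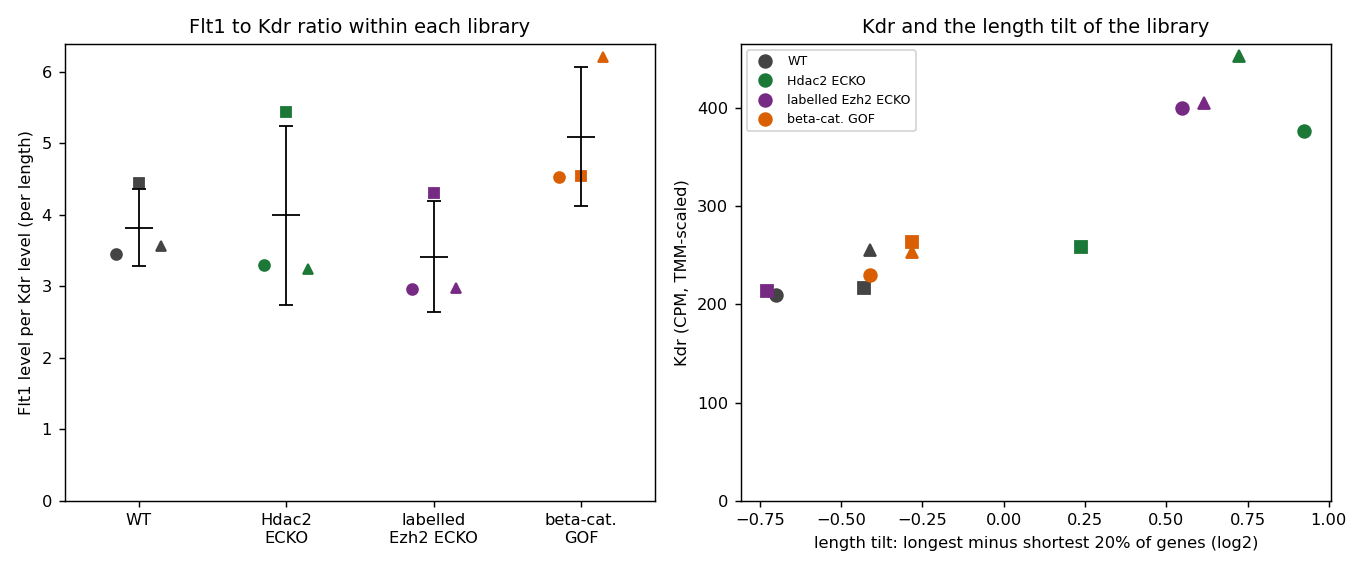
Left, the ratio of Flt1 to Kdr per gene length in each library with mean and SD (n = 3). Right, Kdr CPM against the length tilt of the library in log2 units, circles, squares and triangles being replicates 1, 2 and 3. The beta-catenin GOF ratios of 4.53 to 6.21 lie above the WT values, and the 4 libraries with a tilt of 0.55 or more are those with Kdr at 377 CPM or more.

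The genes whose profile over the 12 libraries was most like that of Kdr were Dennd5a (r = 0.98), Clock (r = 0.97) and Edem3 (r = 0.97), by Pearson correlation of log2 CPM among 7580 genes with a mean of at least 10 CPM. Their summed exons are 8677, 13727 and 6381 bases long. The genes most like Flt1 were Amotl1 (r = 0.94), Scd2 (r = 0.92) and Cd93 (r = 0.91). Kdr and Flt1 correlated with each other at r = 0.58. These correlations are descriptions over libraries that share groups and length tilt.

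Beyond the 9 genes, 105 other pathway members were grouped by role into lists, and 95 of them were tested. Between Hdac2 ECKO and WT 12 of these 95 passed, which is 12.6% beside 9.2% of all tested genes, with 8 higher and 4 lower. This count ranged from 0 to 26 when single libraries were left out. It was 0 without WT replicate 1, WT replicate 2, Hdac2 ECKO replicate 1 or Hdac2 ECKO replicate 3, and 26 without replicate 2 of labelled Ezh2 ECKO. Without WT replicate 3 it was 22, without Hdac2 ECKO replicate 2 it was 20, and without beta-catenin GOF replicate 1, 2 or 3 it was 6, 2 or 6. The share of all tested genes that passed moved with it, from 0% without WT replicate 1 to 14.8% without WT replicate 3 and 21.9% without replicate 2 of labelled Ezh2 ECKO.

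Other settings also moved the Hdac2 ECKO count, and with it the share of all tested genes. DESeq2 called 27 of the 95 (16 higher and 11 lower, beside 24.6% of all tested genes), and quantile normalization 24 (18 and 6, beside 16.2%). Library totals alone gave 23 (21 and 2, beside 14.5%), and a fit with no filter 23 (12 and 11, beside 11.2%). Sample quality weights gave 51 (40 and 11, beside 42.7%). With the length and GC correction 2 of the 95 passed, both higher, which is 2.11% beside 6.77% of all tested genes. They were the perlecan gene Hspg2 (1.13, edgeR adjusted p = 0.0357) and the platelet-derived growth factor gene Pdgfb (0.75, edgeR adjusted p = 0.0452), which had not passed without the correction.

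Among 27 tested proximal signalling genes, Ptpn11, which encodes the phosphatase SHP2, rose in Hdac2 ECKO from 18.1 to 38.7 CPM (log2 difference 1.10, edgeR adjusted p = 0.0346). Mapk3, which encodes the kinase ERK1, fell from 75.0 to 28.1 CPM (-1.42, edgeR adjusted p = 0.0355). Of 21 tested receptor regulators, 3 rose and 2 fell. Hspg2, a basement membrane proteoglycan gene, went from 3.49 to 11.0 CPM (1.65, edgeR adjusted p = 0.0323), and Myo6, a motor of endocytic traffic, from 49.8 to 108 CPM (1.12, edgeR adjusted p = 0.0483). Gipc1, an adaptor that binds the neuropilin tail, fell from 16.7 to 5.10 CPM (-1.71, edgeR adjusted p = 0.0434).

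The endocytic adaptor gene Dab2 also rose in Hdac2 ECKO and Pdcl3, whose product is a chaperone of Kdr, also fell. Of 16 tested genes of the hypoxia pathway that controls Vegfa, Arnt, the partner of the hypoxia-inducible factors, rose from 11.6 to 26.5 CPM (1.19, edgeR adjusted p = 0.0360). The histone demethylase gene Kdm3a rose from 28.6 to 54.9 CPM (0.94, edgeR adjusted p = 0.0360), and the other 14 did not pass. Of 9 tested semaphorin and plexin genes, Plxna4 (1.80 to 5.65 CPM) and Plxna2 (27.3 to 55.4 CPM), plexin partners of neuropilins, passed with log2 differences of 1.65 and 1.02 (edgeR adjusted p = 0.0387 and 0.0453). With the length and GC correction these were 1.00 for Plxna4 (edgeR adjusted p = 0.14) and 0.22 for Plxna2 (edgeR adjusted p = 0.67). Other corrected values that shrank by more than 1.5 times were -0.82 for Mapk3, -1.12 for Gipc1, 0.48 for Myo6, 0.62 for Dab2, 0.76 for Arnt and 0.48 for Kdm3a, and none of these 6 passed.

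Among 18 tested genes that VEGF is known to induce in endothelium, Hmgb2 fell in Hdac2 ECKO from 321 to 135 CPM (-1.25, edgeR adjusted p = 0.0394), and the other 17 did not pass. The median log2 difference of this list was 0.10, equal to the 0.10 of all tested genes. With the length and GC correction it was 0.17 beside 0.04 for all tested genes. Before the correction the medians were 0.49 for proximal signalling, 0.76 for receptor regulators and 0.81 for semaphorins and plexins. They were 0.28 for the hypoxia pathway and 0.19 for the other VEGF family genes. With the correction these 5 medians were 0.24, 0.30, 0.49, 0.31 and 0.43. Of the 4 other VEGF family genes tested, Vegfd, a ligand of Flt4, was at 13.5 ± 5.00 CPM in Hdac2 ECKO and 6.52 ± 2.34 in WT (SD, n = 3 each) and did not pass (edgeR adjusted p = 0.19).

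In labelled Ezh2 ECKO 2 of the 95 pathway genes passed, both lower, beside 1.03% of all tested genes. Grb2, an adaptor between receptor kinases and Ras, fell from 39.4 to 17.1 CPM (-1.21, edgeR adjusted p = 0.0478). Gipc1 fell from 16.7 to 3.62 CPM (-2.21, edgeR adjusted p = 0.0478). With the length and GC correction Grb2 still passed (-0.92, edgeR adjusted p = 0.0451) and Gipc1 did not (-1.61, edgeR adjusted p = 0.0552), and 1 of the 95 passed beside 2.77% of all tested genes. Under 3 other settings most calls were higher. DESeq2 called 13 (9 higher and 4 lower, beside 10.4% of all tested genes), a fit with no filter 14 (9 and 5, beside 6.72%) and sample quality weights 36 (26 and 10, beside 29.8%). The edgeR count ranged from 0 to 25 over fits that left out 1 library, reaching 25 without replicate 2 of the labelled group. It was 0 without WT replicate 1 or 2, Hdac2 ECKO replicate 3, replicates 1 or 3 of the labelled group, or any 1 of the beta-catenin GOF replicates, and 9 without WT replicate 3. The share of all tested genes ran from 0.0159% without WT replicate 1 to 18.5% without replicate 2 of the labelled group.

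In beta-catenin GOF 0 of the 95 pathway genes passed in the main edgeR fit or in DESeq2, beside 0% and 0.303% of all tested genes. The fit with no filter called 4 (1 higher and 3 lower), which is 4.21% beside 0.772% of all tested genes. Among the genes induced by VEGF, 6 of 18 had an unadjusted p under 0.05, beside 6.07% of all tested genes. The smallest p-values belonged to Plvap, which encodes a protein of endothelial fenestrae (9.41 CPM in WT, 0.971 in beta-catenin GOF, edgeR adjusted p = 0.60), and to the transcription factor gene Egr3 (26.7 and 9.11 CPM, edgeR adjusted p = 0.64). Esm1, a tip cell gene, was at 6.14 CPM in WT and 0.505 in beta-catenin GOF (edgeR adjusted p = 0.71). The values of Plvap overlapped WT. Of the 18 genes, 2 lay wholly below WT, where 5.87% of all tested genes did, and 0 wholly above, where 6.83% did. The median log2 difference of this list was -0.41 in beta-catenin GOF beside 0.01 for all tested genes. With the length and GC correction it was -0.26 beside 0.01.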

How the data were processed

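Libraries were made with the SMART-Seq v4 PLUS kit from sorted cells and sequenced as read pairs, per the labels' protocols. FastQC, cutadapt, STAR, featureCounts, DESeq2 and mm10 are named in the submitters' processing notes, with no versions. The deposited table is called normalized, but its values are whole-number counts whose totals differ between libraries. Even numbers made up 79.5% to 84.0% of values between 10 and 50 but 59.4% to 67.1% of values between 300 and 1000, a trace of counting both mates that rescaling would have erased, so the authors' deposited counts were treated as raw. Gene positions matched GENCODE M21 on GRCm38 for 99.1% of genes, and gene length was taken from the table per the file headers. The use of strand in counting is not given in the sources used here.

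Groups and replicate numbers came from the sample titles. The design provided for edgeR if the table held counts, and that test was used: 1 quasi-likelihood model (edgeR 4.0.16, R 4.3.3) over all 12 libraries with TMM scaling, on genes whose mean count reached 10, with p-values adjusted by Benjamini-Hochberg over all 12577 genes tested and a threshold of 0.05. CPM is a count divided by its library total after TMM scaling, times 1000000. The 95% interval of a log2 difference is unadjusted. The length and GC correction adds per-library spline offsets (4 degrees of freedom per term) for both properties, and GC content was known for 99.9% of genes. Intervals cover no PCR error, since the reads carry no molecular identifiers.

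The alternatives were other scalings, filters, limma 3.58.1 and DESeq2 1.42.0, sample quality weights, the replicate block, a fit of only the groups compared and leaving out each library. Replicates were separate libraries: chi-square per degree of freedom between libraries of a group was at least 62.6. Scripts were tested on simulated data. All 9 members are named, with at most 3 pathway genes of smallest p given with values per list and contrast, the 3 genes most like Kdr and Flt1, and the targeted genes. Other names were chosen after their values were seen. The members and lists were chosen with earlier results of these data known. Sequences come from RefSeq (GRCm38.p6), in which all 9 members were matched, and the 50 bases after each start were left out.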

Additional observations from a re-analysis of the deposited data

How the results depend on the processing

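The number of the 9 genes past the threshold between Hdac2 ECKO and WT was 0 in edgeR, beside 9.2% of all tested genes. It was 1 with the replicate block (Vegfb, beside 14.6%) and with limma at a prior count of 2 (Vegfb, beside 12.9%). The count was 2 with library totals alone (Kdr and Flt1, beside 14.5%), quantile normalization (Flt1 and Vegfb, beside 16.2%) and DESeq2 (Flt1 and Vegfb, beside 24.6%). Sample quality weights gave 3 (Kdr, Flt1 and Vegfb, beside 42.7%). With library totals alone the median log2 difference of all genes moved from 0.10 to 0.34. Leaving out single libraries gave 0 to 3, reaching 3 without replicate 2 of labelled Ezh2 ECKO, beside 21.9% of all tested genes. For labelled Ezh2 ECKO against WT the count was 1 with quality weights (Kdr, beside 29.8%). It was 0 to 1 when single libraries were left out, reaching 1 without replicate 2 of that group, beside 18.5%. Quality weights gave 2 for beta-catenin GOF against Hdac2 ECKO (Kdr and Vegfb, beside 26.5%) and 3 for all mutants against WT (Kdr, Flt1 and Vegfb, beside 33.8%). The causes of these moves were not tested. Pairing by replicate number was weak: the mean correlation of same-numbered deviations from the group means ran from -0.05 to 0.14. It was highest for Hdac2 ECKO with labelled Ezh2 ECKO, at 0.14 beside -0.07 for other numbers, and 0.09 beside -0.04 for Hdac2 ECKO with beta-catenin GOF. The replicate block changed no other count of the 9 genes past the threshold. With it 14.6% of all tested genes passed in Hdac2 ECKO and 4.26% in labelled Ezh2 ECKO, up from 9.2% and 1.03%.

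Of 943 alternative values for 38 log2 differences, 870 kept their direction and their side of the threshold, 22 passed it where the reported value had not, and 51 turned direction, 17 of them when 1 library was left out. The length and GC correction, without and with the replicate block, turned Flt4 in Hdac2 ECKO (-0.28 and -0.28) and, in labelled Ezh2 ECKO, Flt1 (-0.063 and -0.063), Flt4 (-0.0029 and -0.0037), Nrp1 (-0.041 and -0.0049), Nrp2 (-0.27 and -0.26) and Vegfc (0.19 and 0.16). It likewise turned, in beta-catenin GOF, Kdr (-0.011 and -0.00020), Flt4 (-0.17 and -0.18) and Nrp2 (-0.15 and -0.15), and Nrp1 in beta-catenin GOF against Hdac2 ECKO (0.026 and 0.055). With the block alone added to that correction, Pgf in labelled Ezh2 ECKO was 0.15. In Hdac2 ECKO, Flt4 and Vegfc were -0.023 and -0.024 under median-ratio scaling, -0.023 and -0.024 in DESeq2, and -0.0046 and -0.0040 with only the compared groups fitted. In labelled Ezh2 ECKO, Vegfc was 0.022 with library totals, 0.00022 with quantile normalization and 0.28 with quality weights, under which Vegfa was 0.017. In beta-catenin GOF, Flt4 was -0.024 in limma at either prior count, and Nrp2 -0.026 with quality weights. The cause was not tested.

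Leaving out single libraries gave ranges across 0 for Flt4 (-0.065 to 0.10) and Vegfc (-0.20 to 0.35) in Hdac2 ECKO, for Nrp2 (-0.18 to 0.52), Vegfa (-1.66 to 0.21) and Vegfc (-0.28 to 0.28) in labelled Ezh2 ECKO, and for Flt4 (-0.21 to 0.25), Nrp2 (-0.14 to 0.22), Vegfa (-0.65 to 0.30) and Vegfc (-0.15 to 0.58) in beta-catenin GOF. The log2 ratio of Flt1 to Kdr ran from -0.22 to 0.16 in Hdac2 ECKO and from 0.26 to 0.52 in beta-catenin GOF. Vegfa got no value at a mean count of at least 50. Vegfa and Pgf each had a library at 2 counts, under the floor of 3 counts, and depth was not compared with other limits.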

Other observations

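The platelet-derived growth factors are relatives of the VEGF ligands. Pdgfb, by which endothelium recruits pericytes, was at 152 ± 24.7 CPM in Hdac2 ECKO and 103 ± 15.4 in WT (SD, n = 3 each), without overlap (log2 difference 0.56, edgeR adjusted p = 0.12). Pdgfd was at 134 ± 8.24 CPM in Hdac2 ECKO and 181 ± 14.6 in WT (SD, n = 3 each), also without overlap and in the opposite direction (-0.44, edgeR adjusted p = 0.27). In this contrast 19.5% of all tested genes lay wholly above WT and 18.2% wholly below. Neither gene passed the threshold in the main fit, while with the length and GC correction Pdgfb did, as given above.

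With all 9 mutant libraries averaged against WT, 5 of the 95 pathway genes passed, which is 5.26% beside 2.31% of all tested genes. Ptpn11 and Hspg2 were higher, and Gipc1, Mapk3 and Plvap lower. With the length and GC correction 3 passed, beside 4.17% of all tested genes. The count ran from 0 to 22 when single libraries were left out. Plvap, a gene of fenestrated endothelium, was the 1 of 18 tested genes induced by VEGF that passed (log2 difference -3.22, SE 0.67, edgeR adjusted p = 0.0305). It was at 9.41 ± 7.83 CPM in WT (SD, n = 3) and 1.05 ± 0.703 over the mutants (SD, n = 9), and the values overlapped. The SD in WT was nearly as large as its mean, and the adjusted p ranged from 0.00747 to 0.216 over the fits that left out 1 library, with 5 of 12 past the threshold.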
